A study of Rattus norvegicus with 16 samples.

Results

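The renin-angiotensin and mineralocorticoid genes described here are Ace, Agt, Agtr1a, Agtr2, Nr3c2, Hsd11b1 and Hsd11b2. They were chosen by name for their place in the pathway, with earlier results of these data known. All 7 were among the 17245 genes with a single-symbol probe set on the arrays. Each of 16 samples of right ventricular wall RNA was hybridised to an Affymetrix array. The rats were male Wistar and weighed 160 to 180 g, and the study's title concerns failure of the right ventricle under a lasting pressure load. The labels sort the samples into 7 CON, 5 RVF+ and 4 RVF, numbered here as in the labels (CON 1 to 7, RVF+ 8 to 12, RVF 13 to 16). The treatment text names sham operation and banding of the pulmonary artery, a constriction that loads the right ventricle with pressure, but no sample's label says which operation it had, and the codes RVF+ and RVF are not spelled out. No agent, dose, time after operation or age is given, and strain and sex are shared by all 3 groups. Nothing in the labels says that samples of a group are separate animals, so the p-values measure the spread between these samples, which may in part be technical.

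Renin cuts angiotensinogen, the product of Agt, to angiotensin I, and angiotensin-converting enzyme, the product of Ace, trims that to angiotensin II and also breaks down bradykinin. Angiotensin II acts on the type 1 receptor (Agtr1a in rodents), which drives vasoconstriction, growth and aldosterone release, and on the type 2 receptor (Agtr2), which is abundant in the fetus. Nr3c2 encodes the mineralocorticoid receptor, which binds both aldosterone and glucocorticoids. Hsd11b2 protects the receptor from glucocorticoids in kidney and other aldosterone targets by inactivating them, whereas Hsd11b1 regenerates active glucocorticoid from its inert form. In heart muscle cells, where Hsd11b2 is scarce, the receptor is thought to be occupied mostly by glucocorticoid.

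The 250 bases upstream of the annotated start are shown for Ace, the member with the largest difference from CON, and for Agtr2, a member whose group means were nearly equal. Both were taken from a set of RefSeq promoters (build GRCr8) that holds an entry for 3 of the 7 members. The entry for Agtr1a is not shown because it places the start within the annotated extent of the gene. The stretches shown lie on the plus strand at chr10:91409879-91410128 and chrX:116914070-116914319. Capitals mark matches to 3 short motifs on either strand. The TATA box, which positions the start of transcription, was searched as the letters TATAA. The GC box, a site for Sp family factors found upstream of many genes, was searched as the letters GGGCGG. The third motif, bound by NF-Y, was searched as the letters CCAAT.
Ace: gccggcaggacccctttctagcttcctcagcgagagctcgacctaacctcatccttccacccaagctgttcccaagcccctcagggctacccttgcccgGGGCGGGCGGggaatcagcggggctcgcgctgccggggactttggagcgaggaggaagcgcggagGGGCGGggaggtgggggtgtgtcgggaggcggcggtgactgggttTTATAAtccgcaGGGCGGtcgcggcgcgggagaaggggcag
Agtr2: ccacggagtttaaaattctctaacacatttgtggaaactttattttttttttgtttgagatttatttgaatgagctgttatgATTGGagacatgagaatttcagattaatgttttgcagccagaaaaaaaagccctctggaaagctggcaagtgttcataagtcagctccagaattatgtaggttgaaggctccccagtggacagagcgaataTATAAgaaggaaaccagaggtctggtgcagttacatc
The Ace stretch has 69.2% G and C, against a median of 52.0% over 27457 rat promoters, and the Agtr2 stretch has 38.0%. Ace holds TATAA at -40 to -36 relative to the start, overlapping a match on the minus strand at -41 to -37, and 4 GC boxes, of which the pair starting at -151 and -147 overlap each other. Agtr2 holds TATAA at -37 to -33 and a CCAAT box on the minus strand at -168 to -164, with no GC box. Of all promoters of this length, 24.1% hold the TATA letters, 32.4% the GC box and 34.3% the CCAAT letters. A half-site to which corticosteroid receptors can bind, searched as AGAACA, is in 17.1% of promoters and in neither of these stretches. A match describes the letters only.

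Of 6 ventricular muscle markers all stood at or above percentile 97.1 of all genes by mean signal. Of 3 atrial markers, Myl7 and Sln reached log2 intensities of 10.79 and 10.03 in CON and at most 7.26 and 7.05 in RVF, where both passed as lower. The third, Nppa, which loaded ventricles also express, was higher by 4.26 ± 0.50 in RVF+ (adjusted p = 1.14e-05) and 4.57 ± 0.54 in RVF (adjusted p = 1.73e-05). The summed intensity of the 3 was 540 to 2577 in CON. RVF+ arrays held 3238 to 4926, and RVF arrays 4824 to 6209. Of the other marker lists, 2 of 8 smooth muscle and pericyte genes were higher in RVF+ and in RVF, 3 of 4 red cell genes were higher in RVF+, and no gene of 6 for mast cells or 4 for lung epithelium passed. Without RVF+ 8, 2 mast cell genes (Cpa3 and Fcer1a) and 4 of 4 red cell genes were higher in RVF+. RVF+ 8 stood apart. Its log2 values lay at a root mean square distance of 0.711 from the CON mean over all genes, where the remaining 8 arrays outside CON lay at 0.326 to 0.448. Its summed ventricular muscle markers were also the lowest, at 14998 intensity units, while CON and RVF held 22118 to 28684. In limma's fit over all genes, with Benjamini-Hochberg adjustment and a threshold of 0.05, 27.7% of genes differed between RVF+ and CON (14.1% higher in RVF+, 13.6% lower). Between RVF and CON 17.1% differed (8.86% higher, 8.29% lower), and between RVF+ and RVF the share was 0%. At an unadjusted p under 0.05, 1242 genes passed in the last comparison, among them Ace and Nr3c2. With each array centred on its median the higher and lower counts in RVF+ against CON went from 2423 and 2348 to 1757 and 3577, and in RVF against CON from 1528 and 1429 to 1084 and 2108. That centring moved the median difference of all genes in RVF+ against CON from -0.012 to -0.11. Both comparisons with CON use the same CON arrays, so they are not independent of each other.

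Both groups differed from CON in 3 members, as the plot of the members by array shows. Ace and Hsd11b1 were higher and Nr3c2 was lower, in RVF+ and in RVF. Agt, Agtr1a, Agtr2 and Hsd11b2 did not pass in any comparison, and no member passed between RVF+ and RVF. The 3 members called of 7 compare with 27.7% of all genes called in RVF+ against CON and 17.1% in RVF against CON. The median of the 7 differences was -0.012 in RVF+ against CON, beside -0.012 for all genes, and 0.046 beside -0.0087 in RVF against CON.

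**Figure D1:**
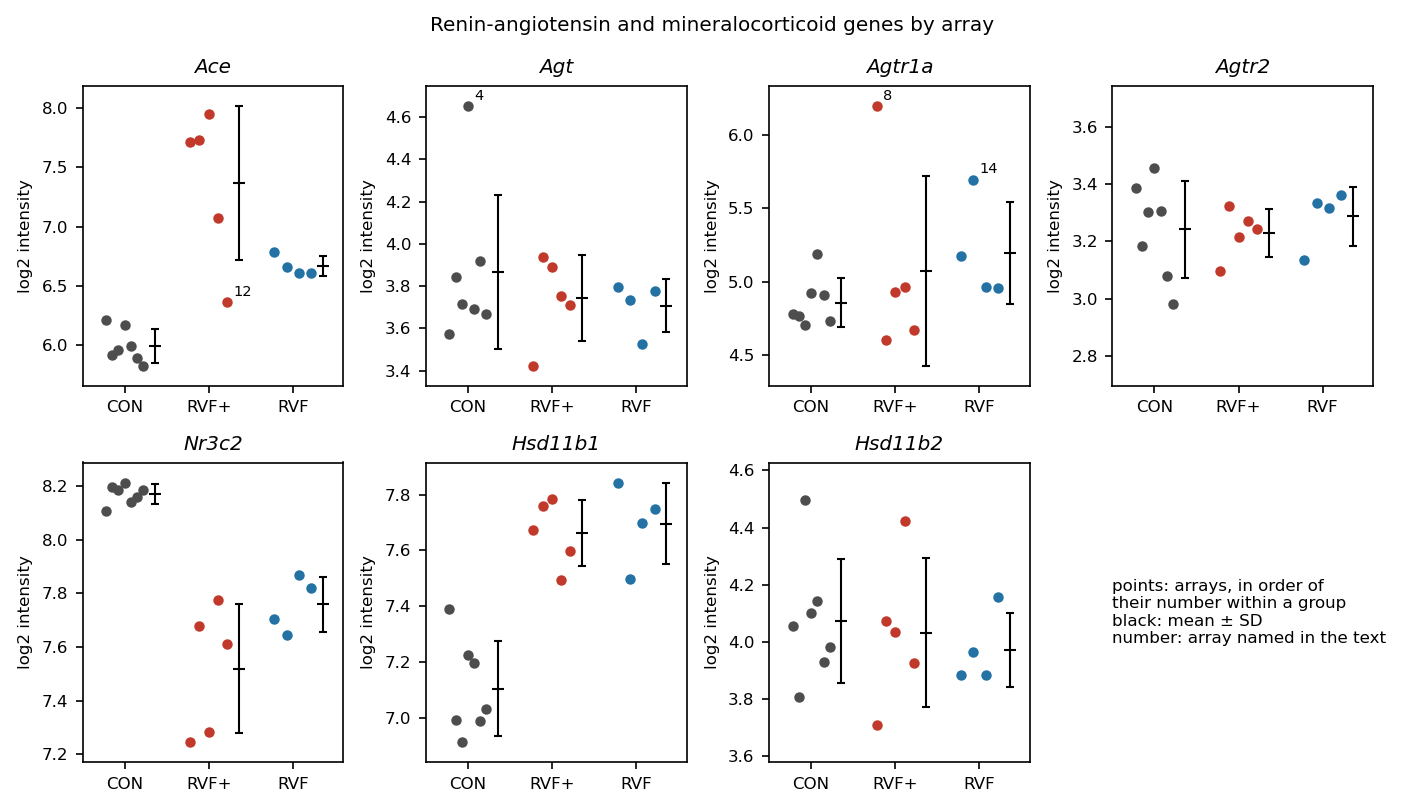
Log2 intensity of the 7 members on each array, in CON (7 arrays), RVF+ (5) and RVF (4), with the mean and SD of each group in black. Every RVF+ and RVF array lies above every CON array for Ace and Hsd11b1 and below it for Nr3c2, while the groups overlap for the other members.

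Members differ in how far they stand above the dim end of the array. By mean log2 intensity, Nr3c2 stood at percentile 82.6 of all genes, Hsd11b1 at 76.7 and Ace at 63.9. Agtr1a stood at 43.4, Hsd11b2 at 30.6, Agt at 25.9 and Agtr2 at 11.0, below the median gene (5.57). Intensity depends on the probes as well as on the RNA, so these ranks describe the signal and do not order the members by transcript number.

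Agt, the substrate gene, gave a low signal in all groups. The CON arrays ran from 3.57 to 4.65 with a median of 3.71 on the log2 intensity scale. RVF+ 8 to 12 read 3.42, 3.94, 3.89, 3.75 and 3.71, and RVF 13 to 16 read 3.80, 3.73, 3.52 and 3.77. The groups overlapped throughout, and the one array clearly above the rest was CON 4. The difference was -0.12 ± 0.15 (SE; 95% interval -0.44 to 0.19; limma adjusted p = 0.593) in RVF+ against CON and -0.16 ± 0.16 (-0.49 to 0.18; adjusted p = 0.555) in RVF against CON. Changes of Agt within those intervals remain compatible with the values of these arrays.

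Ace, the converting enzyme, had the largest difference from CON of the members and a wide spread within RVF+. In CON it ran from 5.83 to 6.21 with a median of 5.96. RVF+ 8, 9 and 10 read 7.72, 7.73 and 7.95, RVF+ 11 read 7.07 and RVF+ 12 read 6.37. RVF 13 to 16 read 6.79, 6.66, 6.61 and 6.61. All RVF+ and RVF arrays were above all CON arrays, whereas RVF+ 12 fell below every RVF array and the other 4 RVF+ arrays were above every RVF array. Genes whose RVF+ and CON arrays do not overlap made up 14.6% of all genes, the same figure for RVF and CON was 18.8%, and for RVF+ and RVF it was 1.74%.

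Mean Ace was 5.99 ± 0.15 (SD, n = 7) in CON, 6.67 ± 0.085 (n = 4) in RVF and 7.37 ± 0.65 (n = 5) in RVF+. The RVF+ mean exceeded the CON mean by 1.37 ± 0.20 on the log2 scale (SE; 95% interval 0.96 to 1.79), or 2.59-fold, with a limma adjusted p of 6.43e-05. A two-sided exact permutation test of the means gave p = 0.00126, the smallest its 792 splits allow. The RVF mean exceeded the CON mean by 0.67 ± 0.21 (0.23 to 1.12), or 1.59-fold, with a limma adjusted p of 0.0346 and an exact permutation p of 0.00303, the smallest of 330 splits.

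The second of these calls lies close to the threshold. It was lost when any RVF array was left out (RVF 13, 14, 15 or 16) and when CON 2, 3, 5, 6 or 7 was left out, with adjusted p from 0.0510 to 0.0993 and differences from 0.63 to 0.69. Centring each array on its median also ended it (0.59, adjusted p = 0.0536). The fit pools the spread of all 3 groups: with CON and RVF arrays alone the SE was 0.084 and the limma adjusted p 4.42e-05, and without RVF+ 12 the SE was 0.13 and the adjusted p 0.00174.

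Between RVF+ and RVF, the mean of Ace differed by 0.70 ± 0.22 (95% interval 0.23 to 1.17), or 1.63-fold. This did not pass over all genes (limma adjusted p = 0.468, unadjusted p = 0.00612), and the exact permutation p was 0.0873 over 126 splits. RVF+ 12 decided the outcome. Without it the difference was 0.95 ± 0.15 with an adjusted p of 0.0376, and Ace was among 3 genes called. Without each other array in turn the difference stayed between 0.55 and 0.77 and did not pass. By mean the order was CON, RVF, RVF+, with the last pair not separated beyond the spread of the RVF+ arrays.

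**Figure D2:**
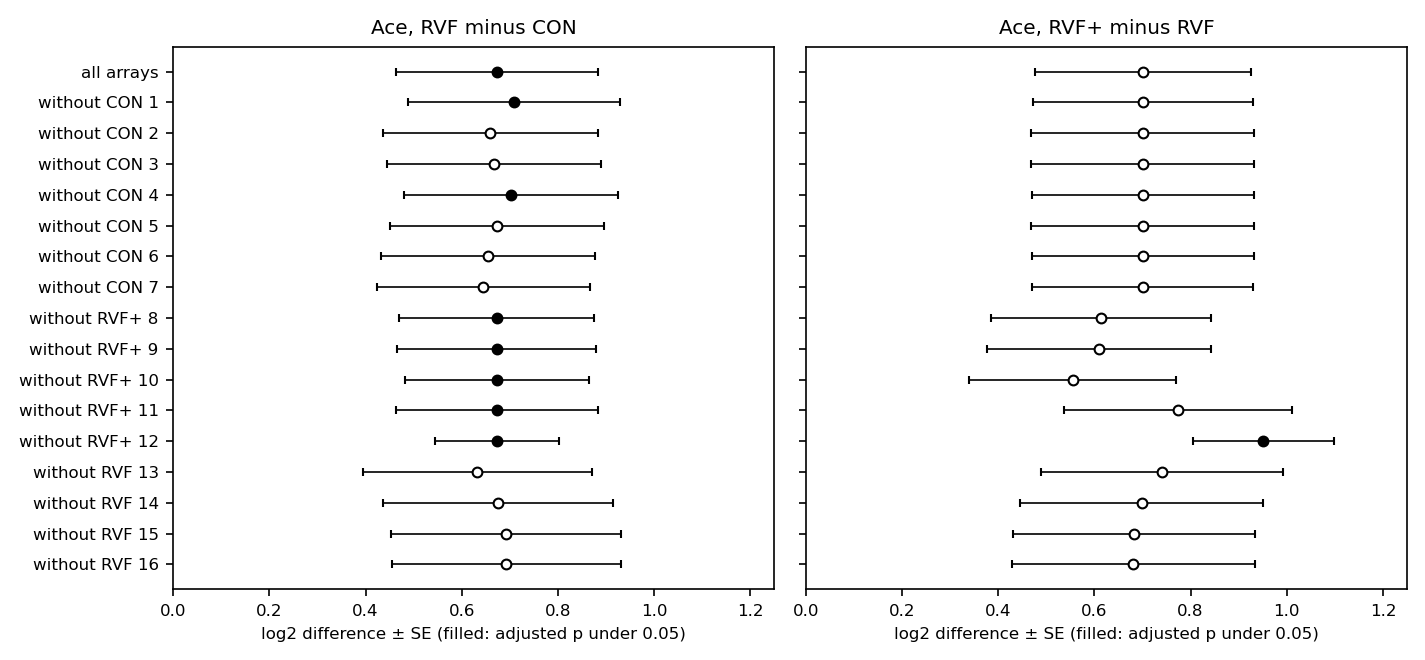
Log2 difference of Ace with its SE when each array is left out in turn, for RVF minus CON (left) and RVF+ minus RVF (right). Filled points have an adjusted p under 0.05. The call in RVF against CON is lost when any 1 RVF array, or any of 5 CON arrays, is left out, and a call in RVF+ against RVF appears only without RVF+ 12.

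Of the genes whose mean reached the median of all genes, the 3 that followed Ace most closely in log2 value over the 16 arrays were Cmip, Slco2a1 and Atp10d, with Pearson r of 0.983, 0.970 and 0.956. The groups' means contribute to these values. For deviations from the group means r was 0.935, 0.905 and 0.809. Slco2a1, which encodes a prostaglandin transporter, read 8.37, 8.50, 8.96, 6.84 and 6.49 in RVF+ 8 to 12. As for Ace, RVF+ 8 to 10 were high and RVF+ 12 was the lowest array of the group.

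Ace is made mainly by endothelium in the normal heart, and endothelial markers were therefore set beside it. One of the 6 measured markers, Vwf (von Willebrand factor), passed in RVF+ against CON (1.08 ± 0.17, adjusted p = 0.000188), and none passed in RVF against CON. Vwf read 8.94, 9.20, 9.51, 8.98 and 8.18 in RVF+ 8 to 12 and 8.60, 8.01, 8.29 and 7.95 in RVF 13 to 16. RVF+ 12 was the lowest RVF+ array for Vwf, whereas for each of the other 5 markers, none of which passed, the lowest was RVF+ 8. Cdh5, for example, the gene of vascular endothelial cadherin, read 7.33, 7.67, 7.96, 7.61 and 7.70 in RVF+ 8 to 12. The summed intensity of the 6 markers ran from 1835 to 2108 in CON. In RVF+ it was 1926 to 3085, and in RVF 1922 to 2407. Without RVF+ 8, Tek passed beside Vwf in RVF+ against CON. Markers of macrophages, which can also make Ace, passed for 8 of 8 genes in RVF+ and 6 of 8 in RVF, all higher. Of all genes, 14.1% were higher in RVF+ and 8.86% in RVF. The macrophage sums were 918 to 1350 in CON. The RVF+ sums were 1802 to 4428, with a median of 2170 and the highest in RVF+ 8. The RVF sums were 1492 to 2171. The part of either cell type in the Ace values was not tested. In bulk samples such as these, a change in the number of cells of a type cannot be told apart from a change in RNA per cell.

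**Figure D3:**
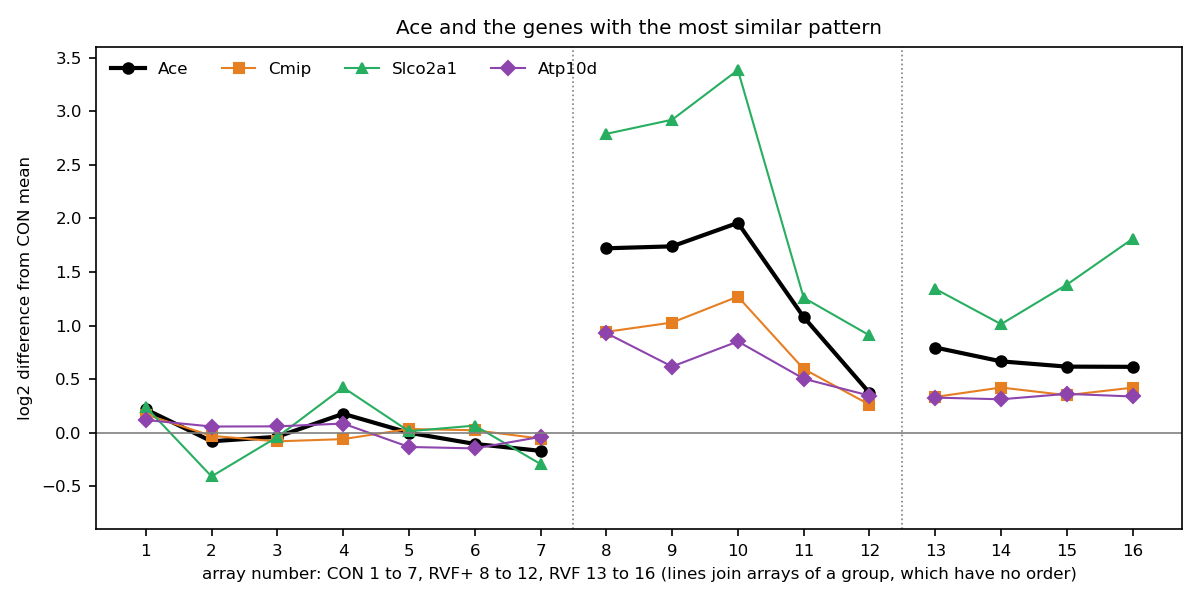
Log2 difference from the CON mean for Ace, for the 3 genes with the most similar pattern (Cmip, Slco2a1, Atp10d), on each of the 16 arrays. All 4 genes peak in RVF+ 10 or RVF+ 8 and are lowest within RVF+ in RVF+ 12.

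The angiotensin II receptors did not pass. Agtr1a, the main type 1 receptor gene of the rodent heart, ran from 4.70 to 5.19 in CON with a median of 4.78. It read 6.19, 4.61, 4.93, 4.96 and 4.67 in RVF+ 8 to 12, and 5.17, 5.69, 4.96 and 4.95 in RVF 13 to 16. RVF+ 8 was far above the rest of its group and RVF+ 9 and RVF+ 12 were below every CON array, and the RVF+ mean was 5.07 ± 0.65 (SD, n = 5). The difference from CON was 0.22 ± 0.21 (95% interval -0.23 to 0.67; limma adjusted p = 0.500) in RVF+, and -0.065 without RVF+ 8. In RVF it was 0.34 ± 0.23 (-0.14 to 0.82; adjusted p = 0.354), while the exact permutation p, not adjusted for other genes, was 0.0273. RVF+ against RVF gave -0.12 ± 0.24 (-0.64 to 0.39; adjusted p = 0.952).

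RVF+ 8, the array with the high Agtr1a value, also had the highest summed macrophage markers (4428 intensity units). The genes closest to Agtr1a over the 16 arrays were Zeb2, a transcription factor, Sirpa, a receptor found on myeloid cells, and Mmp23, with r of 0.889, 0.873 and 0.862. Sirpa read 9.08 in RVF+ 8 and from 8.04 to 8.28 in the other RVF+ arrays. The part of these cells in the Agtr1a value was not tested. Agtr1a has a close relative, Agtr1b, whose own probe set stood at percentile 12.9 of all genes. It read 3.05 to 3.42 in CON, 3.25 to 3.61 in RVF+ (3.45 in RVF+ 8) and 3.17 to 3.32 in RVF. Whether the probes of each gene also bind RNA of the other was not tested.

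Agtr2, the type 2 receptor gene, was the dimmest member. It ran from 2.98 to 3.46 in CON with a median of 3.30. It read 3.10, 3.33, 3.22, 3.27 and 3.24 in RVF+ 8 to 12, and 3.14, 3.34, 3.32 and 3.36 in RVF 13 to 16, all within the CON range. The differences from CON were -0.012 ± 0.084 (95% interval -0.19 to 0.16; limma adjusted p = 0.935) in RVF+ and 0.046 ± 0.090 (-0.14 to 0.23; adjusted p = 0.783) in RVF. A signal this close to the bottom of the array may understate any difference in RNA.

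Nr3c2, the mineralocorticoid receptor gene, had the tightest CON group of the members and was lower in both other groups. The CON arrays ran from 8.11 to 8.21 with a median of 8.19. RVF+ 8 to 12 read 7.24, 7.68, 7.28, 7.78 and 7.61, and RVF 13 to 16 read 7.70, 7.65, 7.87 and 7.82. No RVF+ or RVF array reached the lowest CON array. Groups were separated from CON, in either direction, for 14.6% of all genes in RVF+ and 18.8% in RVF. For Nr3c2, RVF+ 8 and RVF+ 10 were the lowest of all. The mean fell from 8.17 ± 0.037 (SD, n = 7) in CON to 7.52 ± 0.24 (n = 5) in RVF+ and 7.76 ± 0.10 (n = 4) in RVF.

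The difference was -0.65 ± 0.088 (SE; 95% interval -0.84 to -0.47; limma adjusted p = 4.03e-05) in RVF+ against CON, a 1.57-fold lower mean. In RVF against CON it was -0.41 ± 0.094 (-0.61 to -0.21; adjusted p = 0.00572), a 1.33-fold lower mean. Exact permutation p-values were 0.00126 and 0.00303, the smallest possible. RVF+ was lower than RVF by a mean difference of -0.24 ± 0.10 (-0.45 to -0.028), which did not pass (limma adjusted p = 0.622, unadjusted p = 0.0285; exact permutation p = 0.119). Both calls against CON held with each array left out in turn.

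Ventricular muscle markers, which come from the cells that make up most of the tissue's mass, were set beside Nr3c2. Of 6 markers, 3 were lower in RVF+ against CON (Myh6, Tnni3 and Pln), beside 13.6% of all genes, and none passed in RVF. For Myh6 the RVF arrays nonetheless read 11.39 to 11.95 and the CON arrays 12.44 to 12.57. For Tnni3 they read 11.75 to 11.84 and 12.07 to 12.14. RVF and CON were separated in this way for 18.8% of all genes, whereas Myl2 overlapped (9.72 to 9.97 and 9.84 to 10.03). The fit pools the spread of all 3 groups, and RVF+ 8 read 9.54 for Myh6 and 10.92 for Tnni3. The summed intensity of the 6 markers ran from 27547 to 28684 in CON. It ran from 14998 to 23834 in RVF+, and from 22118 to 24394 in RVF. The part of muscle content in the Nr3c2 values was not tested. Without RVF+ 8, the array with the lowest sum, Nr3c2 differed by -0.58 (adjusted p = 5.47e-05). Among the markers Myh6, Tnni3 and Pln also passed as lower there, while Myl2 (-0.14), Tnnt2 (-0.086) and Actc1 (-0.024) did not pass. The genes nearest Nr3c2 in pattern were Rapgef2, which encodes an exchange factor for Rap GTPases, Adra1b, the alpha-1B adrenergic receptor gene, and Pgap4, each with r of 0.972 over 16 arrays. Within groups r was 0.888, 0.839 and 0.858. Adra1b read 7.94 to 8.16 in CON. Its RVF+ arrays read 6.21 to 7.13 and its RVF arrays 7.28 to 7.46.

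Hsd11b1, which regenerates active glucocorticoid, was higher in both groups. CON ran from 6.91 to 7.39 with a median of 7.03. RVF+ 8 to 12 read 7.67, 7.76, 7.79, 7.50 and 7.60, and RVF 13 to 16 read 7.84, 7.50, 7.70 and 7.75. All 9 were above the highest CON array, a separation shown in either direction by 14.6% of all genes for RVF+ and 18.8% for RVF. For Hsd11b1, RVF+ and RVF overlapped. The mean rose from 7.11 ± 0.17 (SD, n = 7) to 7.66 ± 0.12 (n = 5) in RVF+ and 7.70 ± 0.15 (n = 4) in RVF. The differences from CON were 0.56 ± 0.090 (95% interval 0.37 to 0.75; 1.47-fold; limma adjusted p = 0.000208) and 0.59 ± 0.097 (0.39 to 0.79; 1.51-fold; adjusted p = 0.000369). The difference between RVF+ and RVF was -0.034 ± 0.10, with an interval of -0.25 to 0.18 (adjusted p = 0.970).

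The genes nearest Hsd11b1 were Gask1b, Sfxn3 and Emp1, with r of 0.983, 0.968 and 0.959 over the 16 arrays and 0.929, 0.841 and 0.763 within groups. Fibroblasts are a known site of Hsd11b1. Of 9 fibroblast markers, 6 were higher in RVF+ and 5 in RVF, beside 14.1% and 8.86% of all genes. Among them was Postn, the gene of the matrix protein periostin (3.37 ± 0.34 in RVF+ and 3.25 ± 0.36 in RVF). Without RVF+ 8, 6 passed as higher in RVF+, while Pdgfra (-0.10), Dcn (0.15) and Tcf21 (-0.13) did not pass. The summed intensity of the 9 fibroblast markers ran from 6058 to 7040 in CON. It was 7609 to 8755 in RVF+ and 7388 to 8682 in RVF. Adipocyte markers, another site of the enzyme, passed for none of 5 in either group. The part of these cells in the Hsd11b1 values was not tested.

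Hsd11b2, the inactivating enzyme, gave a low signal without a detectable difference. CON ran from 3.81 to 4.50 with a median of 4.05. RVF+ 8 to 12 read 3.71, 4.07, 4.03, 4.42 and 3.92, and RVF 13 to 16 read 3.88, 3.96, 3.88 and 4.16. The groups overlapped. The differences from CON were -0.041 ± 0.12 (95% interval -0.29 to 0.21; limma adjusted p = 0.842) in RVF+ and -0.10 ± 0.13 (-0.37 to 0.17; adjusted p = 0.651) in RVF.

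For Agt, Agtr2 and Hsd11b2 the genes most alike in pattern reached r of 0.805 at most (Nemf with Agt), against 0.956 or more for each gene named beside Ace, Nr3c2 and Hsd11b1. These correlations come from the same 16 arrays and share the group structure, so they are descriptions.

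**Figure D4:**
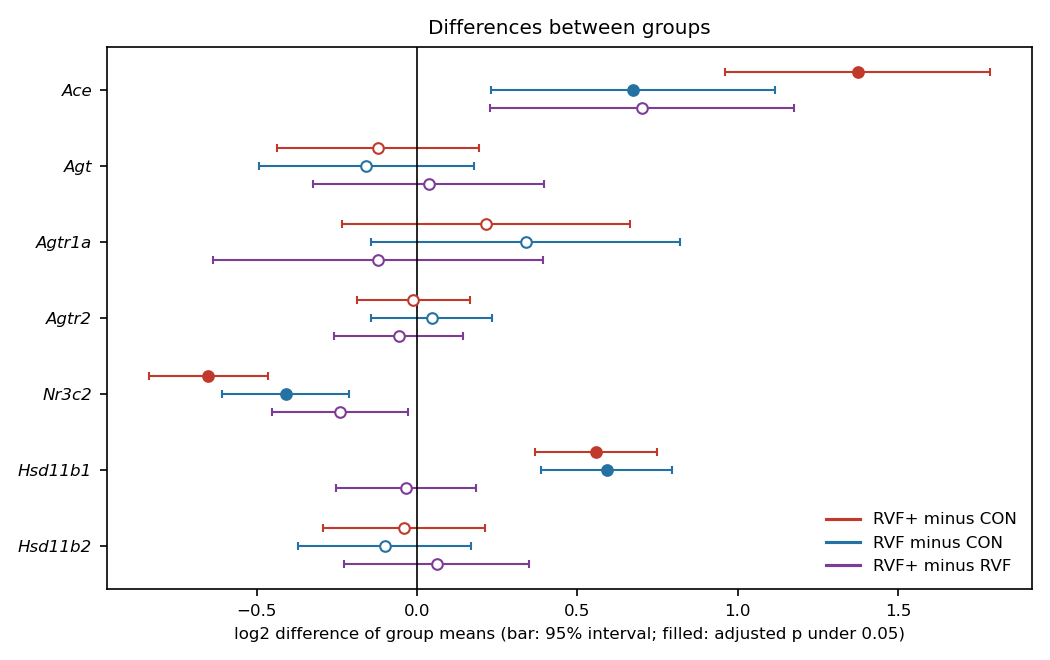
Log2 difference of group means with its 95% interval for each member in RVF+ minus CON, RVF minus CON and RVF+ minus RVF. Filled points passed at an adjusted p of 0.05. Ace, Nr3c2 and Hsd11b1 passed in both comparisons with CON, and the intervals of Ace and Nr3c2 in RVF+ minus RVF leave out 0 without passing over all genes.

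Other genes of the pathway were read from 5 lists with 62 genes, of which 55 were measured. In RVF+ against CON 15 were higher and 9 lower, or 43.6% against 27.7% of all genes, with a median difference of 0.024. In RVF against CON 7 were higher and 5 lower, or 21.8% against 17.1%, with a median of 0.0001. None passed between RVF+ and RVF. The lists were drawn up with earlier results of these data known, so these shares describe the lists and do not test the pathway. Without RVF+ 8 the counts in RVF+ against CON were 15 and 10, beside 24.9% of all genes called. In RVF against CON 24.6% of all genes were called without that array, and the pathway genes were not counted there. With median centring the counts in RVF+ against CON were 14 and 14, or 50.9% against 30.9% of all genes. With it Lnpep, Mas1, Gna11, Hsp90ab1 and Atp1b1 passed as lower and Atp6ap2 no longer passed. In RVF against CON centring gave 6 higher and 6 lower.

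Of 14 measured genes of angiotensin peptide processing, 2 were higher and 2 lower in RVF+, and 1 was lower in RVF. These shares lie near the 27.7% of all genes called in RVF+ and below the 17.1% called in RVF. Mme, which encodes neprilysin, a peptidase that cleaves angiotensins, bradykinin and natriuretic peptides, fell by 1.20 ± 0.15 in RVF+ (adjusted p = 2.04e-05) and fell by 1.35 ± 0.16 in RVF (adjusted p = 2.04e-05). It ran from 4.61 to 5.39 in CON. The RVF+ arrays (3.47 to 4.05) and the RVF arrays (3.31 to 3.88) all lay below that. Of all genes, 14.6% were separated from CON in RVF+ and 18.8% in RVF. By mean signal Mme stood at percentile 35.6 of all genes, so its values outside CON were low. Prcp, which encodes a carboxypeptidase that can inactivate angiotensin II, was higher by 0.73 in RVF+ and by 0.47 without RVF+ 8. In RVF it differed by 0.41 (adjusted p = 0.159), with all RVF arrays (7.81 to 8.07) above all CON arrays (7.36 to 7.64). Without RVF+ 8 it differed by 0.059 between RVF+ and RVF (adjusted p = 0.950). Rnpep, an aminopeptidase gene, fell by 0.26 in RVF+. Atp6ap2, the gene of the prorenin receptor, was higher by 0.33 in RVF+ (adjusted p = 0.0276). Leaving out RVF+ 8 took that gene to 0.21 (adjusted p = 0.0631), and it also did not pass without CON 2, CON 7 or RVF+ 12 or with median centring. Renin itself was not analysed here.

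A list of 14 genes covered angiotensin and kinin receptors and type 1 receptor coupling. In RVF+ 5 were higher and none lower, beside 27.7% of all genes called. In RVF 3 were higher, beside 17.1% of all genes called. With median centring 2 were lower in RVF+, Mas1 (-0.24, adjusted p = 0.0497) and Gna11 (-0.25, adjusted p = 0.0364), beside the 5 higher. Grk5, a kinase that shuts off activated receptors, rose by 0.90 ± 0.10 in RVF+ (adjusted p = 5.28e-06) and 0.88 ± 0.10 in RVF (adjusted p = 1.96e-05). Arrb1 and Arrb2, the genes of the beta-arrestins, rose by 0.40 and 0.69 in RVF+, and Arrb2 by 0.55 in RVF. Rgs2, a brake on Gq signals, rose by 0.87 in RVF+ and differed by 0.65 in RVF (adjusted p = 0.0639). Bdkrb2, the bradykinin B2 receptor gene, stood at percentile 35.2 of all genes by mean signal. It rose by 0.67 in RVF+ and 0.35 in RVF (adjusted p = 0.0482). The RVF calls of Arrb2 and Bdkrb2 held in 7 and 4 of 16 fits with an array left out, with adjusted p up to 0.134 and 0.221, and that of Bdkrb2 ended with median centring (adjusted p = 0.0937). Arrb2 did not pass without any one of CON 2 to 6 or RVF 13 to 16. Bdkrb2 did not pass without any one of CON 1 to 6, RVF+ 9 to 12, RVF 13 or RVF 15, and its difference without RVF 13 was 0.22.

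Of 5 measured corticosteroid synthesis genes, Cyp11a1, the side-chain cleavage enzyme that starts steroid synthesis, passed, in RVF+ only. It was lower there (-0.73 ± 0.19, adjusted p = 0.00809), with 5.71 to 6.48 in CON and 4.69, 5.65, 5.46, 5.41 and 5.87 in RVF+ 8 to 12. RVF+ 12 lay within the CON range. In RVF the difference was -0.56 (adjusted p = 0.0682), and it passed with median centring (-0.64, adjusted p = 0.0499). Cyp11b2, the aldosterone synthase gene, stood at percentile 2.48 of all genes by mean signal. Its difference in RVF+ was 0.24 (adjusted p = 0.0985), and it passed there with quantile normalization (0.29, adjusted p = 0.0499).

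Of 10 measured genes of the corticosteroid receptor and its partners, 2 were higher and 5 lower in RVF+, beside 27.7% of all genes called. In RVF 1 was higher and 3 lower, beside 17.1% of all genes called. Nr3c1, the glucocorticoid receptor gene, fell by 0.30 in RVF+ (adjusted p = 0.00508) and differed by -0.10 in RVF (adjusted p = 0.415). The co-chaperones that ride on the receptors moved in opposite directions. Fkbp4 fell by 1.10 ± 0.15 in RVF+ and fell by 0.85 ± 0.16 in RVF, with RVF+ 12 (7.95) well above RVF+ 8 to 11 (6.79 to 7.03). Fkbp5, which is induced by glucocorticoids, was higher by 1.30 ± 0.18 in RVF+ (adjusted p = 4.28e-05).

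Fkbp5 read 8.68, 8.17, 7.89, 7.42 and 7.39 in RVF+ 8 to 12, and 6.96, 6.94, 6.62 and 7.15 in RVF 13 to 16. Every RVF+ array was above every RVF array, a separation that 1.74% of all genes showed in either direction. In RVF the difference from CON was 0.31 ± 0.19 (adjusted p = 0.296), and RVF+ exceeded RVF by 0.99 ± 0.20 without passing over all genes (adjusted p = 0.382, unadjusted p = 0.000133). Hsp90aa1, the gene of the inducible receptor chaperone, was higher by 0.85 in RVF+ and 0.99 in RVF. The coregulator genes Ncoa1, Ncoa2 and Ncor1 were lower in RVF+, with differences of -0.40, -0.40 and -0.27. Ncoa1 and Ncor1 were lower in RVF, with differences of -0.29 and -0.26, and Ncoa2 differed by -0.28 there (adjusted p = 0.0769). The RVF calls of Ncoa1 and Ncor1 held in 7 and 14 of 16 fits with an array left out, with adjusted p up to 0.130 and 0.0598. Ncoa1 did not pass without any one of CON 1, 2, 3, 4 or 6 or RVF 13 to 16, nor Ncor1 without RVF 13 or RVF 16.

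Of 12 measured genes known to respond to mineralocorticoids, 6 were higher and 1 lower in RVF+, with a median difference of 0.42. In RVF 3 were higher and 1 lower, with a median of 0.062. Of all genes, 27.7% were called in RVF+ and 17.1% in RVF. Sgk1, the aldosterone-induced kinase, rose by 0.74 ± 0.13 in RVF+ (adjusted p = 0.000368) and differed by 0.31 in RVF (adjusted p = 0.134). Tsc22d3 (GILZ) and Zbtb16, transcriptional regulators induced by corticosteroids, rose by 0.79 and 0.91 in RVF+ and differed by 0.31 and 0.018 in RVF (adjusted p = 0.260 and 0.969). Zbtb16 read 8.35, 9.34, 9.15, 8.07 and 7.99 in RVF+ 8 to 12 and 7.95, 7.77, 7.29 and 7.74 in RVF 13 to 16, but the difference of 0.89 between RVF+ and RVF did not pass (adjusted p = 0.403). Several of these genes also respond to glucocorticoids, so the list does not separate the receptors.

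Lgals3, the galectin-3 gene, which macrophages express strongly, rose by 1.71 ± 0.27 in RVF+ and 1.01 ± 0.29 in RVF. It read 10.41 in RVF+ 8, the array with the highest macrophage marker sum. Lcn2, the lipocalin gene, rose by 1.20 and 0.77, and Adamts1, a matrix protease gene, by 0.91 and 0.73. Nedd4l, a ubiquitin ligase that removes the epithelial sodium channel, fell by 0.25 in RVF+ and fell by 0.36 in RVF. The RVF calls of Lgals3 and Adamts1 held in 13 and 14 of 16 fits with an array left out (adjusted p up to 0.0695 and 0.0671). Lgals3 did not pass without RVF 13, 14 or 16, nor Adamts1 without RVF 13 or RVF 15.

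**Figure D5:**
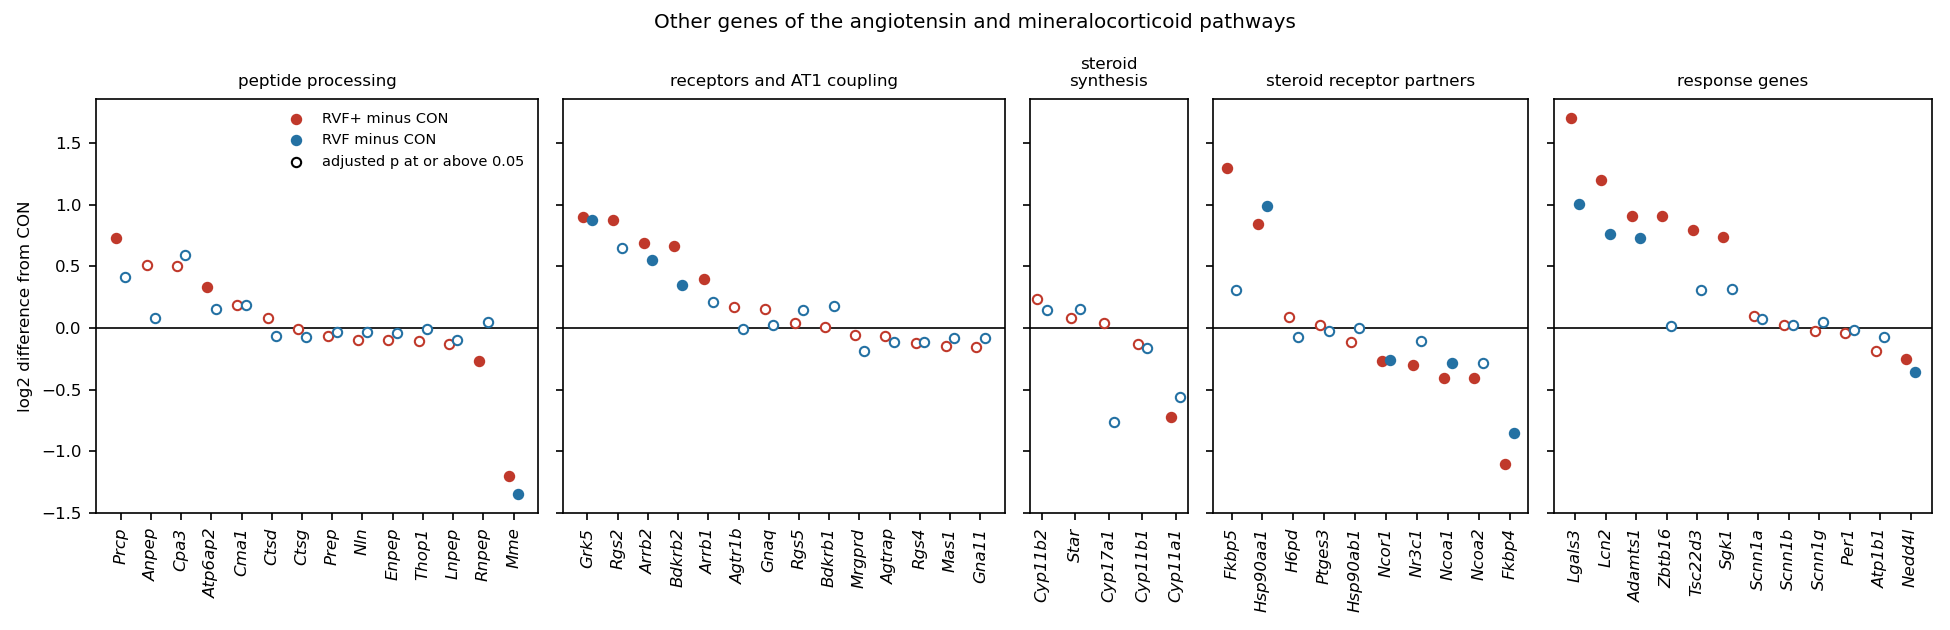
Log2 difference from CON of the 55 measured pathway genes in RVF+ (red) and RVF (blue), grouped by list and ordered by the RVF+ difference. Open points have an adjusted p at or above 0.05. Of the RVF+ points 24 are filled, and of the RVF points 12.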

How the data were processed

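The deposited values are linear intensities, 1 for each probe set on each array. The submitters' processing notes name RMA, a method that corrects background, equalises the arrays' distributions and summarises probes. For the software version and the array build, the sources used here say nothing. Per the labels' protocols, 500 ng of total RNA was labelled per sample. The table has 29214 probe sets, of which 18644 carry 1 gene symbol in GEO's platform annotation, 962 several and 9608 none listed here. Of the identifiers, 18460 matched RefSeq (GRCr8) and no symbol changed. The probe set with the highest mean stood for each of 879 genes that had several; every member had 1.

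Values were taken to log2 and fitted with limma 3.58.1 (R 4.3.3) as 3 group means over all 16 arrays, with Benjamini-Hochberg adjustment over 17245 genes and a threshold of 0.05. The number of arrays limits the precision. Exact permutation tests were two-sided. The code was tested on simulated data. The labels give no batch. The members, gene lists and marker lists were chosen with earlier results of these data known. Named genes are the members, pathway genes that passed against CON, and for each member the 3 best correlated of the genes with a mean at least the median of all genes; marker genes, and pathway genes that passed under another scaling but not in the main setting, are named beside their lists, the latter chosen after their values were seen. Alternatives were other scalings, filters on dim genes, probe set rules, array sets, moderation, array weights, log2(value + 16) and leaving out each array. List counts without RVF+ 8 and under other scalings were added after seeing the data.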

Additional observations from a re-analysis of the deposited data

Results flagged for a closer look

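An array was marked where its gap to the nearest other array of its group was a large share of the group's range (Dixon's 95% critical value). Of 93 groups of values tested, over the members and the pathway genes that passed, 8 were marked, where chance marks about 1 in 20 groups. Of the 21 groups of member values, 2 were marked. Agt read 4.65 in CON 4, with the next CON array at 3.92. Agtr1a read 6.19 in RVF+ 8, with the next RVF+ array at 4.96.

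RVF+ 8 was also the extreme RVF+ array for Arrb2 (6.98, highest), Prcp (9.27, highest) and Ncoa1 (7.73, lowest). CON 4 was the highest CON array for Hsp90aa1 (10.05). Fkbp4 read 7.95 in RVF+ 12, against at most 7.03 in the other RVF+ arrays, so the same array that was low for Ace was close to CON for Fkbp4. Mme read 3.31 in RVF 13, the lowest of its group.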

How the results depend on the processing

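Ace, Nr3c2 and Hsd11b1 kept their direction and call in RVF+ against CON under every alternative run, and Nr3c2 and Hsd11b1 did so in RVF against CON. Ace in RVF against CON did not pass with median centring (0.59, adjusted p = 0.0536) or log2(value + 16) (0.56, adjusted p = 0.0562), so 2 members were called there, and the left-out arrays gave 2 to 3 members and 0.63 to 0.71. In RVF+ against RVF, leaving out arrays gave 0 to 1 members, 0 to 3 genes and 0.55 to 0.95 for Ace (adjusted p 0.0376 to 0.924), the call coming without RVF+ 12. Other alternatives gave 0.63 to 0.73 for Ace (adjusted p 0.209 to 0.979). Genes called in RVF against CON numbered 4466 with the compared groups only and 4688 with array weights, against 2957, and 2063 to 4247 with an array left out; in RVF+ against CON the last range was 4288 to 4993. The cause of these shifts was not tested.

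Differences that did not pass changed sign as follows. In RVF+ against CON, Agtr2 was 0.028 with quantile normalization, and array weights, which gave RVF+ 8 a weight of 0.174, turned Agt (0.014), Agtr1a (-0.018), Agtr2 (0.035) and Hsd11b2 (0.042). In RVF against CON, Agtr2 was -0.038 with median centring. With an array left out, RVF+ against CON ran from -0.17 to 0.0083 for Agt, -0.065 to 0.33 for Agtr1a, -0.056 to 0.023 for Agtr2 and -0.14 to 0.040 for Hsd11b2. RVF+ against RVF ran from -0.025 to 0.12 for Agt, -0.40 to 0.043 for Agtr1a, -0.10 to 0.015 for Hsd11b1 and -0.037 to 0.14 for Hsd11b2. The filter at the median level gave no value for the 4 dim members, nor the lower filter for Agtr2. No paired analysis was possible because the labels give no pairing of samples. Low signal limits what can be said of Agt, Agtr2 and Hsd11b2.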
